A study of Mus musculus with 20 samples.

Results

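RNA from the whole brain was measured for 42 genes of the cell cycle and of DNA replication, chosen by name as proliferation genes, and all 42 were among the 19463 genes of the deposited table. They were sorted by role into 9 genes of origin licensing, 4 of nucleotide supply and the replication clamp, 7 regulators of the entry into S phase, 5 of mitotic entry, 7 of the mitotic checkpoint and exit, 7 of the kinetochore and spindle, and 3 of the chromosome itself. The mice were C57BL/6J males of 4 groups, with 5 wild-type (WT) and 5 Katnal2-KO mice at P21 (3 weeks) and 5 of each genotype at P70 (10 weeks), 20 mice in all. Katnal2-KO mice carry a homozygous germline deletion of a single exon, which shifts the reading frame, in the gene for katanin catalytic subunit A1 like 2, a relative of the microtubule-severing katanins. Their line came from EUCOMM ES cells with the targeted allele Katnal2tm1a(EUCOMM)Wtsi, was crossed to C57BL/6J and to Protamine-Flp mice, and early embryos were then treated with HTNC, a Cre recombinase that enters cells. All groups thus shared strain, sex and tissue, and littermates of mixed genotype were housed together. Age could not be told apart from any batch of tissue collection or sequencing that went with it. Values are the authors' normalized counts, on which the question was how far the proliferation genes of the brain change between weaning and adulthood, and whether the loss of Katnal2 changes them at either age.

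Cells that divide pass through a fixed order of steps. MCM proteins are loaded on replication origins by Cdc6 and Cdt1, D-type and E-type cyclins and E2F factors open S phase, ribonucleotide reductase and the Pcna clamp serve DNA synthesis, and Cdk1 with A-type and B-type cyclins drives mitosis. Chromosomes are then held to the spindle by kinetochores under the watch of the Bub and Aurora kinases, and Ube2c and Cdc20 serve the anaphase-promoting complex that ends mitosis. In the postnatal brain most neurons no longer divide, and dividing cells are mainly oligodendrocyte precursors and the progenitors of the subventricular zone and the dentate gyrus. Some of these genes, such as Pcna, Ccnd1 and Mcm genes, are also transcribed in cells that are not in mitosis. In RNA from bulk tissue, fewer cells of a type and less RNA per cell cannot be told apart.

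Genes of late cell cycle phases are known to share promoter elements, the CCAAT box and the cell cycle genes homology region (CHR), while genes of S phase carry E2F motifs. RefSeq promoter windows on GRCm38.p6, from 250 bases before to 50 bases after a transcription start, were present for 34 of the 42 genes (38 windows). No window was used for Mcm4, Ccnd1, Ccnd2, Ccne2, Ccna2, Foxm1, Aurkb and Tpx2. CCAAT was searched as the CCAAT box, TTTGAA and TTCGAA as the CHR, and TTTCGCGC, TTTGGCGC, TTTCCCGC and TTTGCCGC as the E2F motif, on both strands. In the 38 windows 1 pair of matches to different motifs overlapped. A CCAAT box was found for 27 of the 34 genes (79.4%), against 41.1% of all 27025 genes with a window. A CHR was found for 17 of 34 (50%), against 21.7% of all genes, and an E2F motif for 9 of 34 (26.5%), against 2.6% of all genes. Among the roles, the 6 checkpoint and exit genes with a window and the 3 chromosome genes all held both a CCAAT box and a CHR. Of the 8 licensing genes with a window, 6 held an E2F motif and 2 a CHR. The 200 bases before the start are printed for 5 genes called lower at P70 (Mki67, Top2a, Ube2c and Rrm2 in both genotypes, Ccnb1 in KO mice alone). They are also printed for Mcm2, which was called higher in WT mice alone, and for Pcna, which was called in neither direction. They run 5′ to 3′ on the strand of the gene, and capitals mark matches to these motifs.
Mki67: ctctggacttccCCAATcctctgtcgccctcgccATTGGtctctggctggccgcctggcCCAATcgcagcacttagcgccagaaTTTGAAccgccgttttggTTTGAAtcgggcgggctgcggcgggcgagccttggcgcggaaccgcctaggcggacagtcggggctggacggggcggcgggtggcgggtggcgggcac
Top2a: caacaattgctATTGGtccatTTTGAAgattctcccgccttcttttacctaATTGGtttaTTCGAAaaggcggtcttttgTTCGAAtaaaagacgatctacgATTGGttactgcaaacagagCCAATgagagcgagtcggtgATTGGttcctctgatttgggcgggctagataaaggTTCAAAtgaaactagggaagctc
Ube2c: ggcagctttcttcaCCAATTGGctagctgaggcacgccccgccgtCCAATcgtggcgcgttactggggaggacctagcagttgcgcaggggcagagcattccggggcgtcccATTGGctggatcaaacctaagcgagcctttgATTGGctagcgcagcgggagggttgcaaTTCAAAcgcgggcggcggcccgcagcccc
Rrm2: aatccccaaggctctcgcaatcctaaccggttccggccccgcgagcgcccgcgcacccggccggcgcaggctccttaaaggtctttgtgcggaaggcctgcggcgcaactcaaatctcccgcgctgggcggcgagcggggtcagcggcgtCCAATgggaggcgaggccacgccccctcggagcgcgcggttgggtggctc
Ccnb1: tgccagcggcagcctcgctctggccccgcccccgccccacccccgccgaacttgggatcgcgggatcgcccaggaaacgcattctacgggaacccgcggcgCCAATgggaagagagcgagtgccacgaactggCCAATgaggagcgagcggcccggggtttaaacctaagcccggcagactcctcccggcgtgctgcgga
Mcm2: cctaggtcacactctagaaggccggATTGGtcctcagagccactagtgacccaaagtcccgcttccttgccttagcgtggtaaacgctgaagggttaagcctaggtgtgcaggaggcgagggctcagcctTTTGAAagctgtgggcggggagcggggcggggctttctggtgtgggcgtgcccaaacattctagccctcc
Pcna: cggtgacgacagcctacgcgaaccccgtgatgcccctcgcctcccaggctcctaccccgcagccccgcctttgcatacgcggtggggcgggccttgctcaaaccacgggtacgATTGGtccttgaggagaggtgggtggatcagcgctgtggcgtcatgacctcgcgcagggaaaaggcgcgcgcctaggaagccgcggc
On GRCm38.p6 these stretches are chr7:135716380-135716579 for Mki67, chr11:99024190-99024389 for Top2a, chr2:164769729-164769928 for Ube2c and chr12:24708054-24708253 for Rrm2. Those of the other genes are chr13:100786487-100786686 for Ccnb1, chr6:88898781-88898980 for Mcm2 and chr2:132253181-132253380 for Pcna. Ube2c and Rrm2 lie on the plus strand and the other genes on the minus strand. In these stretches Mki67 held 3 CCAAT boxes and 2 CHRs, Top2a 5 and 4, and Ube2c 5 and 1. Mcm2, which was called higher at P70 in WT mice, also held 1 of each. Rrm2 and Pcna held 1 CCAAT box and Ccnb1 held 2, all without a match to TTTGAA or TTCGAA. Other spellings of the CHR were not searched. Of the 6 genes called lower in either genotype that had a window, 3 held a CHR (50%), the same share as among the members. All 6 held a CCAAT box and 1 an E2F motif. Bub1, Bub1b, Aurka, Plk1, Cdc20, Ccnb2 and Cdk1 held both a CCAAT box and a CHR and were called in neither genotype. A relation of motifs to the age differences was not tested. A match describes the letters and was not measured as a bound site.

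**Figure D1:**
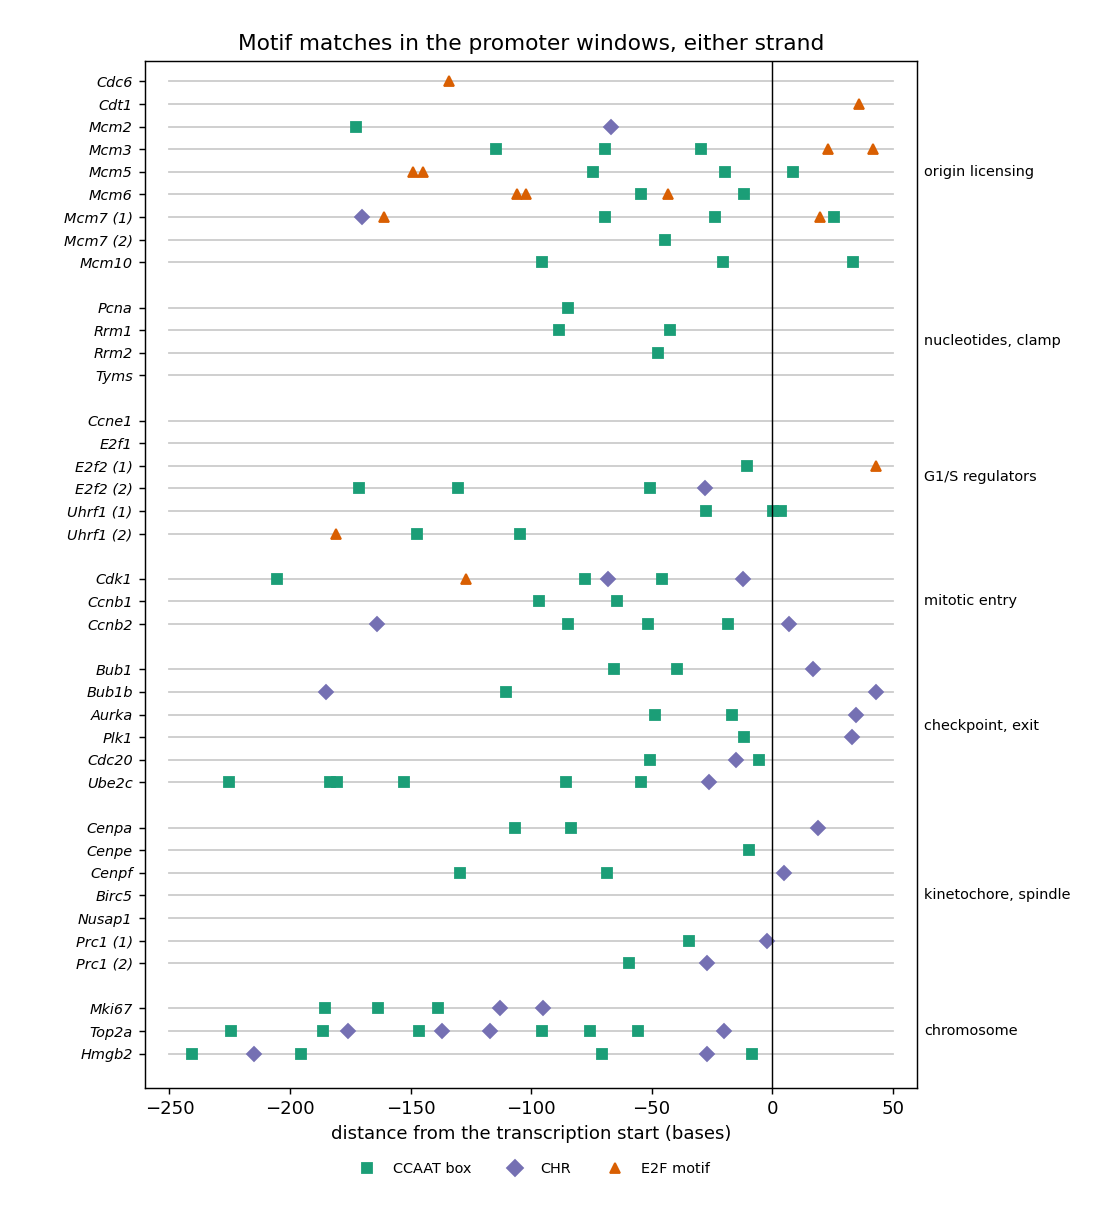
Positions of motif matches in the promoter windows of 34 cell cycle genes, with the distance from the transcription start in bases on the x axis and 1 line per window, grouped by role. Squares are CCAAT boxes, diamonds CHRs and triangles E2F motifs. Of the 9 genes with an E2F motif 6 are licensing genes, and each of the checkpoint and exit genes has a CHR and a CCAAT box.

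Depth and 2 mice bear on every value given. The spacing of the low values put 1 read at about 0.75 to 1.05 units at P21 and 0.97 to 1.19 at P70. That is about 26.5 to 36.9 M reads per mouse at P21 and 23.1 to 28.5 M reads at P70. The search ended at 1.19 units, the value of P70 WT replicate 4 and P70 KO replicate 4. Their depths of 23.4 and 23.1 M reads may therefore be too high. A value of 10 rests on about 10 reads. The replicate 5 mice of P70 stood apart in both genotypes, with first principal component scores of 55.4 (WT) and 70.3 (KO) against -26.6 to 11.4 in the other 18 mice. Counts of called genes with age are therefore given with and without them. As a check of the labels, Katnal2 was 99.3 to 115 in P21 WT and 78.1 to 96.0 in P21 KO mice (exact permutation test, two-sided, p = 0.00794, the smallest that 5 against 5 allows). At P70 it was 101 to 141 in WT and 95.1 to 125 in KO mice (p = 0.0794, same exact test). These were sums over the whole gene, which includes exons outside the deleted one, so this check is partial. Brain genes were high in all mice (the synaptic gene Snap25 averaged 52702 at P21 and 62726 at P70 in WT mice), and all 840 values of the 42 genes were above 0, the lowest being 1.24 for Bub1 in P70 WT replicate 5.

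Per kilobase of exon, mean levels of the 42 genes in P21 WT mice ran from 2.48 to 369.6. In P21 WT mice Pcna was the highest at 369.6 ± 26.6 per kilobase (SD, n = 5), followed by Ccnd1 at 187 ± 14.0, Ccnd2 at 156 ± 16.4 and Ccne1 at 124 ± 9.82. These 4 kept this order in every group. Mki67 was at 11.7 ± 2.21 per kilobase (rank 28 of 42) and Top2a at 9.51 ± 2.42 (rank 31), which did not differ beyond their spread. Lowest were Bub1 at 2.78 ± 0.849 and Cenpf at 2.48 ± 0.555. These 2 neighbours also lay within their spread. By P70 the mean level of Top2a was 5.20 per kilobase in WT and 4.07 in KO mice (rank 34 in both). With the longest transcript as the length Mki67 ranked 32 and Top2a 27 in P21 WT mice, so their order depends on the length used.

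In WT mice 7 of the 42 genes were lower at P70 than at P21 (limma, Benjamini-Hochberg adjusted p under 0.05), against 4.7% of all 17630 genes tested, and 2 were higher, against 4.62%. The 7 were Mki67, Top2a, Ccna2, Rrm2, Ube2c, Uhrf1 and Aurkb, and the 2 were Mcm2 and Ccnd1. In Katnal2-KO mice 6 were lower, against 4.53% of 17641 genes, and 1 was higher, against 3.78%. Of these, Mki67, Top2a, Ccna2, Rrm2 and Ube2c were lower in both genotypes (5 of 7 and 5 of 6), Ccnb1 was called in KO mice, and Ccnd1 was higher in both. The median log2 difference of the 42 genes was -0.14 in WT and -0.10 in KO mice, against 0.00 and -0.01 over all genes tested. The other 32 genes were called in neither genotype. Their log2 differences ran from -0.95 (Bub1) to 0.22 (Ccnd2) in WT and from -0.997 (Cdk1) to 0.67 (Bub1b) in KO mice.

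Without the replicate 5 mice at P70, 8 of the 42 genes were lower in WT mice (8.11% of all genes) and 2 higher (8.89%). The addition was Foxm1, a transcription factor of mitotic genes (log2 difference -1.07, adjusted p = 0.00984, against -0.87 and 0.0640 with all mice). In KO mice 8 were lower (10.7%) and 2 higher (10.6%), the additions being Cdk1 (-1.07, adjusted p = 0.0292), the chromosomal passenger Birc5 (-0.99, 0.0497) and, higher, Ccnd2 (0.19, 0.0452). All members called with all mice were also called without these 2.

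**Figure D2:**
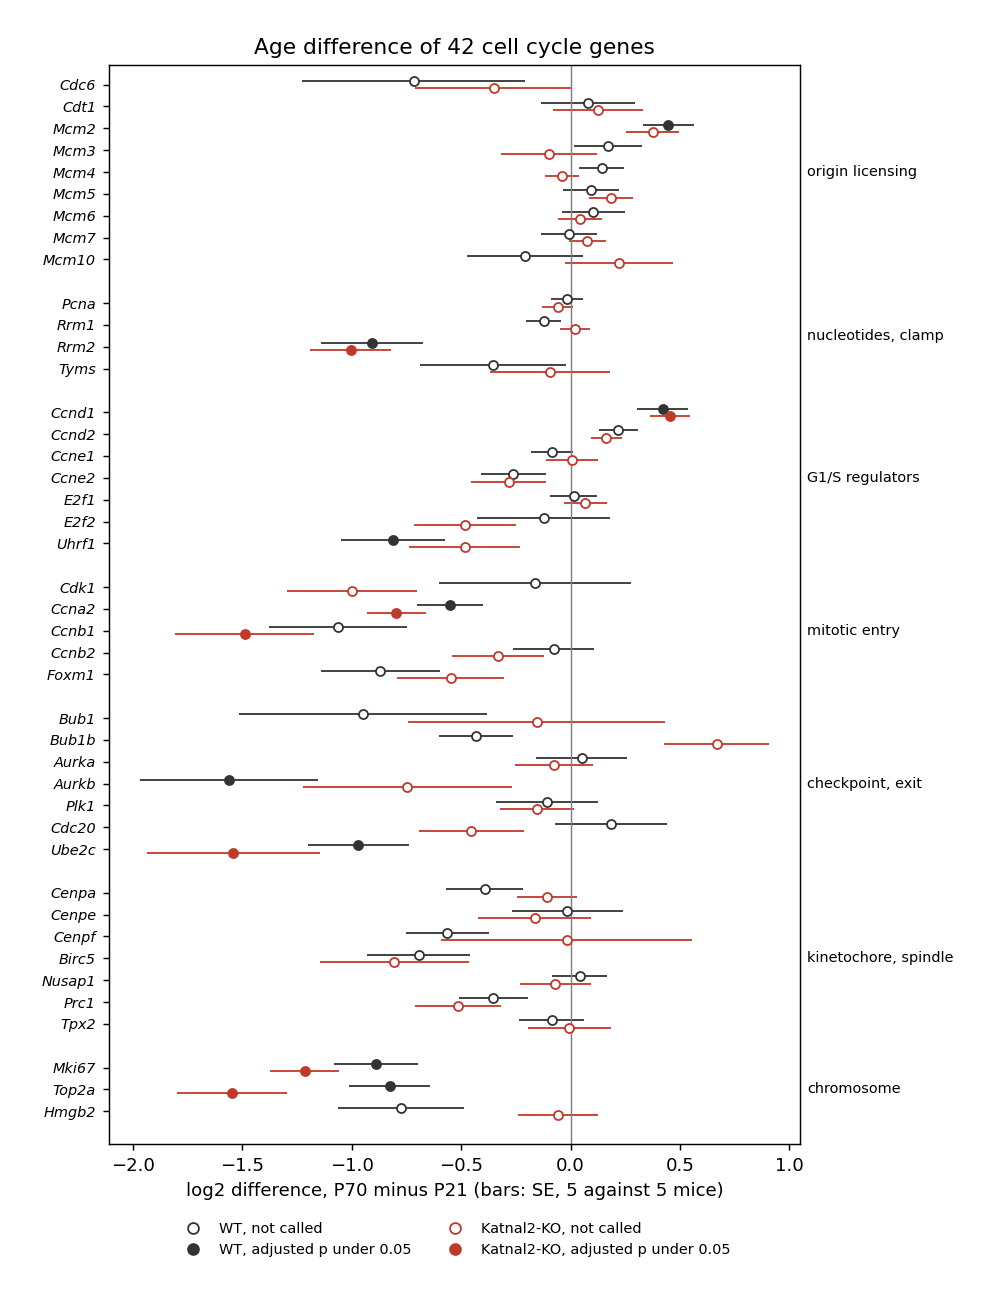
Log2 difference between P70 and P21 of each of the 42 genes (x axis, P70 minus P21 on the log2(value + 1) scale, bars are SE, 5 against 5 mice), black for WT and red for Katnal2-KO, grouped by role, with filled points at an adjusted p under 0.05. Filled points left of 0 lie mostly among the mitotic entry, checkpoint and chromosome genes. Of the licensing genes Mcm2 alone has a filled point (WT), and Cdc6 lies at -0.72 in WT mice, not called.

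Of the 3 chromosome genes Mki67 and Top2a fell in both genotypes (median log2 difference of the 3 -0.83 in WT and -1.22 in KO mice). Over all genes 4.7% were called lower in WT and 4.53% in KO mice. Mki67, which coats mitotic chromosomes and marks cycling cells, was 136, 87.7, 107, 142 and 113 in the 5 P21 WT mice and 48.2, 63.8, 57.7, 95.6 and 53.6 in the 5 P70 WT mice. In KO mice it was 136, 123, 142, 138 and 111 at P21 and 66.6, 61.8, 54.5, 60.6 and 37.8 at P70. The ages overlapped in WT mice through P70 replicate 4 alone, which lay above P21 replicate 2, and did not overlap in KO mice. Mki67 was 1.85-fold lower at P70 in WT (log2 -0.89 ± 0.19 SE, adjusted p = 0.0111) and 2.32-fold lower in KO mice (-1.22 ± 0.16, adjusted p = 0.000599).

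Top2a, the topoisomerase that untangles replicated chromosomes, was 72.2, 56.8, 113, 90.8 and 95.9 at P21 and 45.7, 55.0, 39.0, 46.1 and 48.7 at P70 in WT mice. In KO mice it was 108, 96.1, 106, 128 and 75.9 at P21 and 30.6, 26.4, 69.0, 29.5 and 27.7 at P70. Every P70 mouse lay below every P21 mouse of its genotype, with P70 KO replicate 3 well above its 4 group mates. The fall was 1.77-fold in WT (log2 -0.83 ± 0.18, adjusted p = 0.0136) and 2.92-fold in KO mice (-1.55 ± 0.25, adjusted p = 0.00262). Mki67 and Top2a stayed called when any 1 mouse was left out. Hmgb2, a chromatin protein high in dividing cells, ranged from 88.3 to 249.6 at P21 and from 54.7 to 108 at P70 in WT mice (-0.78 ± 0.29, adjusted p = 0.113) and did not pass in KO mice either (-0.06 ± 0.18, adjusted p = 0.891).

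**Figure D3:**
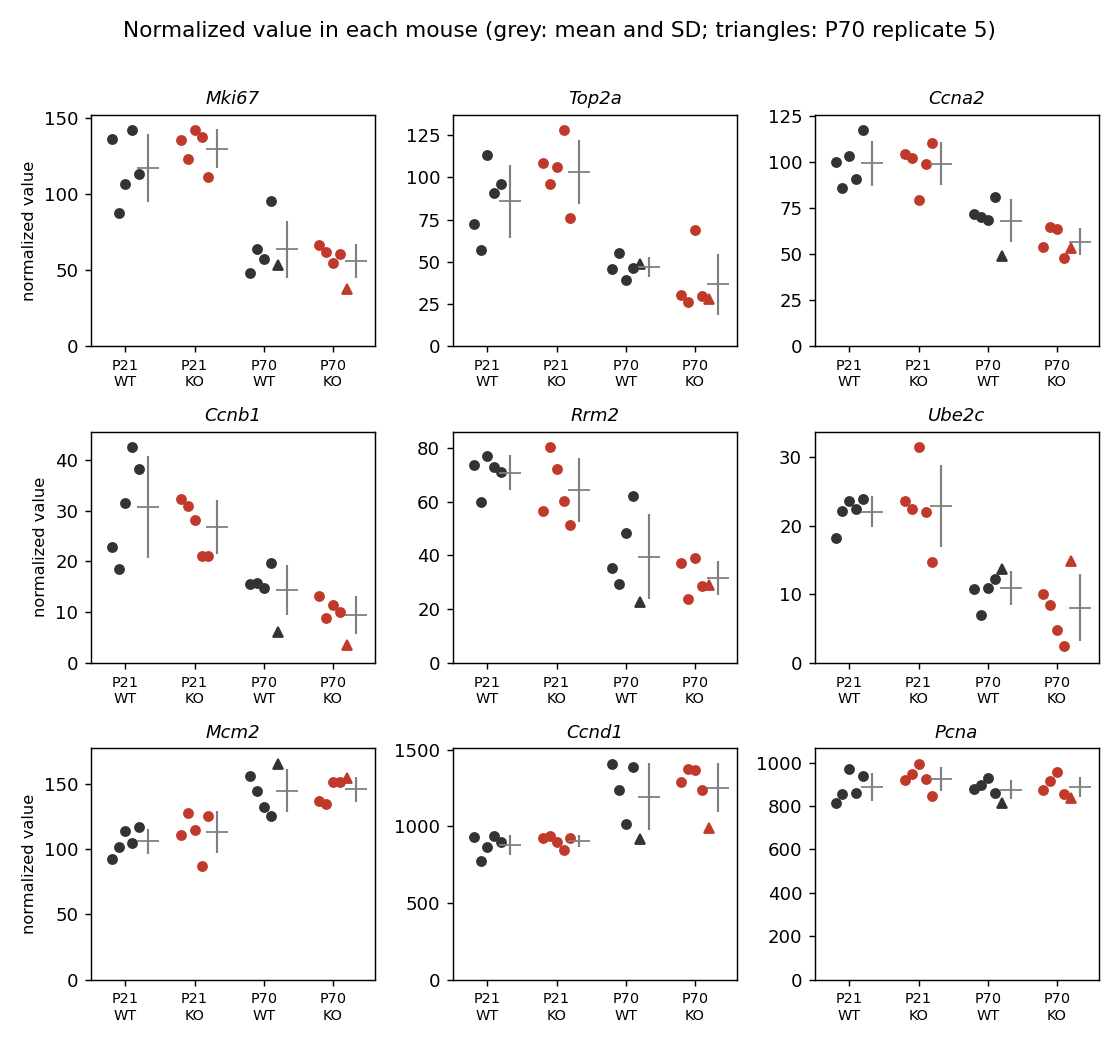
Normalized value (y axis, from 0) of 9 genes in each of the 20 mice by age and genotype, black for WT and red for KO, with grey marks for the mean and SD of 5 mice and triangles for the P70 replicate 5 mice. Mki67, Top2a, Ccna2, Ccnb1, Rrm2 and Ube2c are lower at P70, Mcm2 and Ccnd1 are higher in most P70 mice, and Pcna lies between 813 and 996 throughout.

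Of the 5 genes of mitotic entry, 1 fell in WT and 2 in KO mice, against 4.7% and 4.53% of all genes. All 5 differences were below 0 in each genotype (median log2 -0.55 and -0.80). Over all genes 8772 of 17630 differences in WT and 9172 of 17641 in KO mice were below 0. Roles of so few genes were not tested as sets. Ccna2, the cyclin of S phase and early mitosis, was 100.1, 85.9, 103, 90.8 and 117 at P21 and 71.5, 70.1, 68.7, 81.0 and 49.0 at P70 in WT mice. Katnal2-KO mice gave 104, 102, 79.7, 98.8 and 111, then 53.8, 64.9, 63.5, 47.8 and 53.3. The ages did not overlap in either genotype, and Ccna2 was 1.46-fold lower in WT (adjusted p = 0.0357) and 1.74-fold lower in KO mice (adjusted p = 0.00355). The WT call was lost without any of P21 WT replicates 1, 3, 4 and 5 and P70 WT replicates 1, 2 and 3 (adjusted p up to 0.0890).

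Ccnb1, the cyclin that activates Cdk1 at mitosis, was 22.8, 18.5, 31.5, 42.6 and 38.2 at P21 and 15.6, 15.8, 14.7, 19.6 and 6.19 at P70 in WT mice. KO mice had values of 32.3, 31.0, 28.1, 21.1 and 21.1, then 13.3, 8.81, 11.5, 10.0 and 3.50. The KO groups were apart and the WT groups met between 18.5 and 19.6. Ccnb1 fell in KO mice (log2 -1.49 ± 0.32, adjusted p = 0.0126), whereas in WT mice the difference was -1.06 ± 0.32 (adjusted p = 0.0519). Cdk1 itself was low, from 7.38 to 45.8 over all mice, and gave -0.16 ± 0.44 in WT and -0.997 ± 0.30 in KO mice (adjusted p = 0.865 and 0.0594).

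Among the genes of checkpoint and exit 2 of 7 fell in WT and 1 in KO mice, against 4.7% and 4.53% of all genes. Ube2c, the ubiquitin-conjugating enzyme of the anaphase-promoting complex, was 18.2, 22.2, 23.7, 22.4 and 23.8 at P21 and 10.8, 7.04, 11.0, 12.3 and 13.6 at P70 in WT mice, without overlap. The KO values were 23.6, 22.4, 31.5, 22.0 and 14.7, then 9.98, 8.39, 4.75, 2.43 and 14.9, where the highest P70 mouse, replicate 5, just reached the lowest P21 mouse. The fall was 1.96-fold in WT (adjusted p = 0.0194) and 2.91-fold in KO mice (adjusted p = 0.0315). The WT call was lost without P21 WT replicate 4 (adjusted p = 0.0549). The KO call was lost without any of P21 KO replicates 1, 2, 3 and 4 and P70 KO replicates 2, 3 and 4 (adjusted p up to 0.0780).

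Aurkb, the kinase of the chromosomal passenger complex, was 15.2, 17.4, 13.9, 25.9 and 15.9 at P21 and 15.2, 4.92, 5.45, 1.97 and 3.88 at P70 in WT mice. Katnal2-KO mice gave 10.9, 8.57, 16.2, 9.95 and 23.3, then 4.49, 3.87, 3.61, 14.5 and 19.6. Of the P70 WT mice 4 of 5 lay below every P21 WT mouse, and the KO groups overlapped widely. The log2 difference was -1.56 ± 0.41 in WT (adjusted p = 0.0286) and -0.75 ± 0.48 in KO mice (adjusted p = 0.395). The WT call was lost without any of P21 WT replicates 1, 2, 4 and 5 and P70 WT replicates 2 and 4 (adjusted p up to 0.0881). Bub1, Bub1b, Aurka, Plk1 and Cdc20 were called in neither genotype.

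No kinetochore or spindle gene was called in either genotype with all mice. Below 0 lay 6 of 7 log2 differences in WT and 7 of 7 in KO mice (medians -0.35 and -0.11). Of all genes 8772 of 17630 in WT and 9172 of 17641 in KO mice lay below 0. At an unadjusted p under 0.05 there were 4 of 7 in WT mice, against 24.5% of all genes, and 2 of 7 in KO mice, against 22.7%. Without the replicate 5 mice at P70 none was called in WT mice and 1, Birc5, in KO mice, where 10.7% of all genes were lower. Cenpf, a large kinetochore protein, was 29.3, 36.1, 34.9, 52.3 and 38.9 at P21 and 20.9, 28.6, 26.4, 23.5 and 27.0 at P70 in WT mice (-0.56 ± 0.19, adjusted p = 0.0823). KO mice had values of 27.0, 37.1, 51.7, 53.5 and 31.4 at P21, but 117, 123, 17.8, 20.1 and 15.0 at P70. The WT ages did not overlap, and 2 of the P70 KO mice were far above all others, and the KO difference had an SE of 0.57 around -0.02.

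Birc5 was 39.5, 23.7, 40.9, 45.4 and 27.2 at P21 and 18.7, 20.3, 16.4, 31.0 and 20.2 at P70 in WT mice (-0.70 ± 0.24, adjusted p = 0.0861). The KO values were 42.6, 23.4, 39.2, 43.6 and 20.6, then 7.79, 20.6, 19.3, 19.4 and 31.0 (-0.80 ± 0.34, adjusted p = 0.183). In each genotype the highest P70 mouse lay within the P21 range.

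Of the 9 licensing genes none was called lower in either genotype and 1, Mcm2, was called higher in WT mice. Over all genes 4.62% were called higher in WT and 3.78% in KO mice. The median log2 difference of the 9 was 0.09 in WT and 0.08 in KO mice. Mcm2, a subunit of the replicative helicase, was 92.6, 102, 113, 105 and 116 at P21 and 156, 145, 132, 125 and 165 at P70 in WT mice. Katnal2-KO mice gave 111, 127, 114, 86.8 and 125, then 137, 134, 151, 151 and 154. All P70 mice lay above all P21 mice in each genotype. Mcm2 was 1.36-fold higher in WT (log2 0.45 ± 0.12, adjusted p = 0.0285), while in KO mice the difference was 0.38 ± 0.12 (adjusted p = 0.0767). The WT call was lost without any of P21 WT replicates 1, 2 and 4 and P70 WT replicates 1 and 2 (adjusted p up to 0.0766).

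The other helicase subunits Mcm3 to Mcm7 gave log2 differences between -0.01 and 0.17 in WT and between -0.10 and 0.18 in KO mice. Cdc6, the loader of the helicase, was 19.0, 7.50, 8.30, 15.0 and 57.7 at P21 and 12.2, 12.9, 11.2, 12.2 and 3.24 at P70 in WT mice, and 13.1, 19.9, 18.7, 26.8 and 10.2, then 5.10, 15.7, 16.1, 17.8 and 15.4 in KO mice. Its groups overlapped, and its WT difference of -0.72 ± 0.51 (adjusted p = 0.423) moved to -0.39 without the replicate 5 mice at P70.

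Of the 4 genes of nucleotide supply and the clamp 1 fell in each genotype (median -0.24 in WT and -0.08 in KO mice). Over all genes 4.7% fell in WT and 4.53% in KO mice. Rrm2, the cell-cycle-regulated subunit of ribonucleotide reductase, was 73.5, 59.8, 76.9, 73.0 and 70.8 at P21 and 35.1, 29.2, 48.3, 62.0 and 22.8 at P70 in WT mice. KO mice had values of 56.7, 80.4, 72.3, 60.4 and 51.3, then 37.3, 23.7, 38.9, 28.8 and 29.1. It fell 1.88-fold in WT (adjusted p = 0.0273) and 2.01-fold in KO mice (adjusted p = 0.00536), with 1 overlapping mouse in WT and none in KO mice. The WT call was lost without any of P21 WT replicates 1, 3, 4 and 5 and P70 WT replicates 1 and 2 (adjusted p up to 0.0686).

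Its partner Rrm1, the large subunit, was 532 to 606 at P21 and 474 to 579.6 at P70 in WT mice (-0.12 ± 0.08, adjusted p = 0.381) and differed by 0.02 ± 0.07 in KO mice. In individual WT mice Rrm1 was 606, 532, 559, 570.3 and 532 at P21 and 474, 579.6, 492, 485 and 544 at P70. Rrm1 in KO mice was 561, 577, 532, 529 and 541, then 553, 518, 601, 541 and 570.1. Pcna, the sliding clamp, differed by -0.02 ± 0.07 in WT and -0.06 ± 0.07 in KO mice. Its smallest and largest values over all 20 mice were 813 and 996.

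Of the 7 regulators of S phase entry 1 fell and 1 rose in WT mice, and 1 rose in KO mice (medians -0.09 and 0.01). Over all genes 4.7% fell and 4.62% rose in WT mice, and 4.53% fell and 3.78% rose in KO mice. Ccnd1, the cyclin that answers growth signals, was 929, 776, 864, 941 and 896 at P21 and 1411, 1239, 1017, 1387 and 920.2 at P70 in WT mice. The KO values were 924, 940.3, 901, 844 and 927, then 1293, 1377, 1365, 1241 and 988. It rose 1.34-fold in WT (log2 0.42 ± 0.12, adjusted p = 0.0372) and 1.37-fold in KO mice (0.46 ± 0.09, adjusted p = 0.00891). The KO groups did not overlap, and in WT mice P70 replicate 5 lay within the P21 range, without which the difference was 0.51 (adjusted p = 0.00331). The WT call was lost without any 1 of the P21 WT mice or P70 WT replicates 1, 2 and 4 (adjusted p up to 0.0939).

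Uhrf1, which carries DNA methylation through replication, was 85.5, 43.0, 39.5, 53.9 and 32.8 at P21 and 28.4, 27.5, 29.1, 20.9 and 30.0 at P70 in WT mice, without overlap. Katnal2-KO mice gave 28.8, 53.4, 43.4, 37.9 and 48.8, then 24.5, 19.9, 51.4, 28.4 and 30.8, with overlap. It fell 1.76-fold in WT (adjusted p = 0.0481) and gave -0.48 ± 0.25 in KO mice (adjusted p = 0.287). Its WT call was lost without any of replicates 1, 2, 3 and 4 of either age (adjusted p up to 0.116). In KO mice Mki67, Top2a, Ccna2, Rrm2, Ccnb1 and Ccnd1 stayed called in all 10 such fits. Ccne1, Ccne2, E2f1 and E2f2 were called in neither genotype.

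Other genes of the same processes were counted from lists of their own. Of 30 further replication genes tested in WT mice none was called (1 at an unadjusted p under 0.05), and 1 of 29 was higher in KO mice, Gins2 of the GINS helicase complex (0.76, adjusted p = 0.0252), a call lost without any of P21 KO replicates 1, 2, 4 and 5 (adjusted p up to 0.0711). Their medians were 0.01 and -0.05. The lowest p in WT mice belonged to the polymerase subunit Pold1 (0.39 ± 0.12, adjusted p = 0.0624) and to Tipin of the fork protection complex (-0.32 ± 0.15, adjusted p = 0.206). Of 41 further mitosis genes 5 were lower and 2 higher in WT mice, and of 42 in KO mice 9 were lower and 1 higher, with medians of -0.24 and -0.32. The shares over all genes were 4.7% lower and 4.62% higher in WT, and 4.53% and 3.78% in KO mice. Without the replicate 5 mice at P70 there were 7 lower and 3 higher in WT and 13 lower and 2 higher in KO mice, while the further replication genes gave 0 in WT and 1 higher in KO mice. The shares over all genes were then 8.11% lower and 8.89% higher in WT, and 10.7% and 10.6% in KO mice. Kif11, the motor that separates spindle poles, averaged 78.9 at P21 and 46.9 at P70 in WT mice (-0.74 ± 0.13, adjusted p = 0.00281) and gave -1.02 ± 0.17 in KO mice (adjusted p = 0.00333). Ncaph of the condensin complex gave -1.19 ± 0.22 in WT (adjusted p = 0.00559) and -0.95 ± 0.30 in KO mice (adjusted p = 0.0761).

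Of 14 inhibitors of cyclin-dependent kinases and pocket proteins none was called in either genotype (2 at an unadjusted p under 0.05 in each, both lower, against 24.5% of all genes in WT and 22.7% in KO mice), with Cdkn1c at -0.55 ± 0.19 (adjusted p = 0.0939) and Cdkn2b at -0.86 ± 0.31 (adjusted p = 0.0977) in WT mice. Without the replicate 5 mice at P70, 1 of the 14 was called lower in each genotype. Of 11 other kinases, phosphatases and E2F factors 3 were lower in WT mice, and 1 of 10 in KO mice, against 4.7% and 4.53% of all genes. The counts of this list were 3 lower and 2 higher in WT and 2 lower and 1 higher in KO mice without the replicate 5 mice at P70. All genes then gave 8.11% lower and 8.89% higher in WT, and 10.7% and 10.6% in KO mice. Cdk2, the partner of cyclins E and A, was lower in both (-0.75 ± 0.14 and -0.85 ± 0.14, adjusted p = 0.00509 and 0.00354). The repressor E2f8 fell in WT mice (-1.38 ± 0.27, adjusted p = 0.00668) and gave -0.86 ± 0.28 in KO mice (adjusted p = 0.0826).

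**Figure D4:**
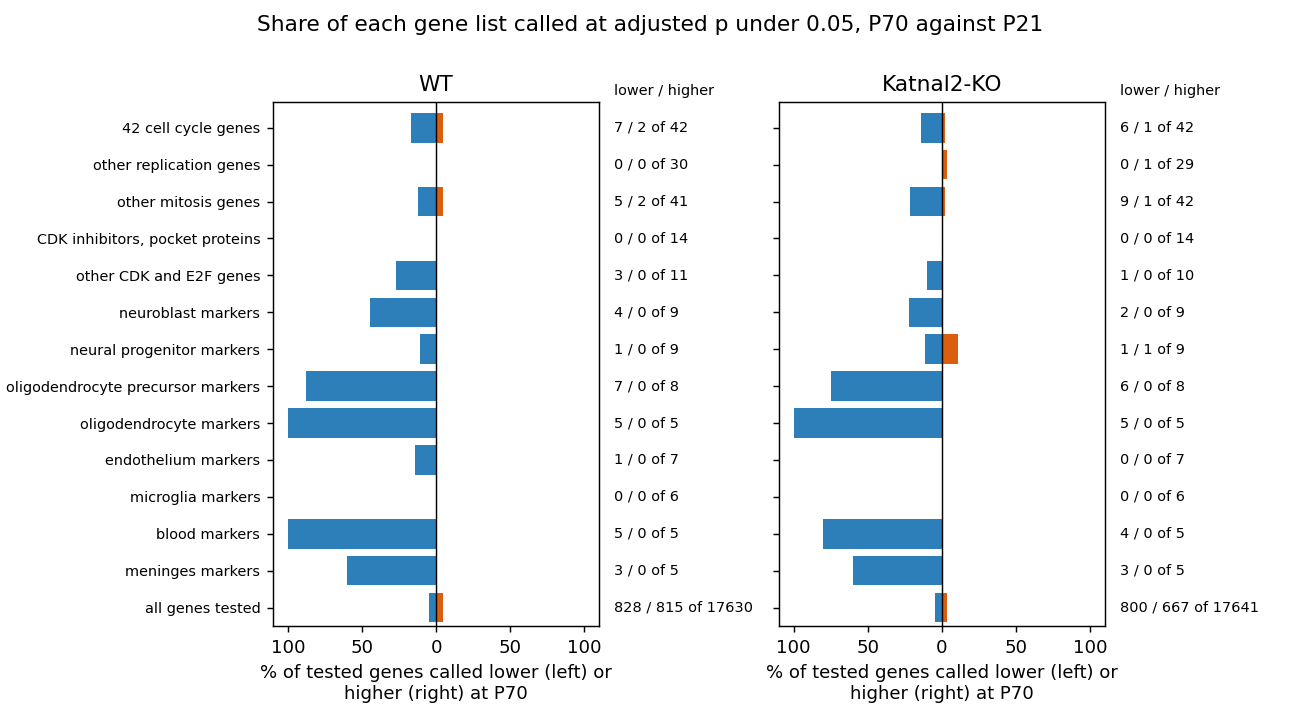
Percent of the tested genes of each list called lower (bars to the left) or higher (bars to the right) at P70 than at P21 in WT and in Katnal2-KO mice, with the counts beside the bars. In WT mice 7 of the 42 cell cycle genes are lower and 2 higher, and 7 of 8 oligodendrocyte precursor markers and 5 of 5 oligodendrocyte markers are lower. Of all genes tested in WT mice 4.7% are lower and 4.62% higher.

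Markers of several cell types moved with age in the same samples. Over all genes tested 4.7% were called lower and 4.62% higher in WT, and 4.53% and 3.78% in KO mice. Of 8 markers of oligodendrocyte precursors 7 were lower in WT and 6 in KO mice, and their summed level ranged from 9499 to 11714 at P21 and 5306 to 6357 at P70 in WT mice and from 8902 to 12139 and 4983 to 5422 in KO mice. Gpr17, a receptor of committed precursors, fell by 1.22 on the log2 scale in WT (adjusted p = 2.79e-05) and by 1.38 in KO mice (adjusted p = 1.42e-05), and Enpp6 of newly forming oligodendrocytes fell by 1.47 and 1.69. All 5 markers of mature oligodendrocytes were lower in both genotypes. Mog of the myelin sheath fell by 1.44 on the log2 scale in WT mice. None of these 13 markers was at 0 in any mouse.

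Of 9 neuroblast markers 4 were lower in WT and 2 in KO mice, with sums of 4107 to 5458 at P21 and 2873 to 3579 at P70 in WT mice and 3551 to 4557 and 2666 to 3515 in KO mice. Sox4 fell in both genotypes (-0.58 ± 0.09 and -0.51 ± 0.11), and Igfbpl1 fell in WT mice (-1.16 ± 0.19), with -0.45 ± 0.20 in KO mice (adjusted p = 0.217). Of 9 neural progenitor markers 1 was lower in WT mice, and 1 lower and 1 higher in KO mice, with sums of 3303 to 4478 over both ages of WT and 3575 to 4575 over those of KO mice. The one that fell was Fabp7 (-1.11 ± 0.19 and -0.87 ± 0.15), and the one higher in KO mice was Eomes (0.90), which gave 0.41 ± 0.21 in WT mice (adjusted p = 0.260). Blood markers fell in 5 of 5 tested in WT and 4 of 5 in KO mice, with sums of 24503 to 61282 at P21 and 6986 to 9959 at P70 in WT mice and 12083 to 30959 and 7299 to 13113 in KO mice. Hba-a2 and Hba-a1, the alpha globins, fell by 2.09 and 2.11 in WT mice, and Ngp was at 0 in some P70 mice. 

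Of 5 meninges markers 3 fell in each genotype, with sums of 2798 to 3093 and 1966 to 2084 in WT and 2254 to 3683 and 1820 to 2257 in KO mice. Col1a2 and Col3a1, fibrillar collagens, fell by 0.57 and 1.64 in WT mice. Of 7 endothelium markers 1 fell in WT mice, Kdr (-1.32 ± 0.18), with Cldn5 at -0.63 ± 0.22 (adjusted p = 0.0967), and none in KO mice, and their sums were 4121 to 4692 and 3347 to 4444 in WT and 3544 to 4963 and 3841 to 4584 in KO mice. None of 6 microglia markers was called in either genotype (1 in WT and 0 in KO mice at an unadjusted p under 0.05), with sums of 4012 to 4989 in WT and 3751 to 5414 in KO mice. P2ry12 gave -0.41 ± 0.13 (adjusted p = 0.0562) and Tmem119 0.19 ± 0.12 (adjusted p = 0.343) in WT mice. None of the granule precursor (3 tested) or pituitary markers (4 in WT and 5 in KO mice) was called with all mice, with Mycn at -0.23 and Tshb at -0.85 in WT mice. Without the replicate 5 mice at P70, 3 endothelium markers were lower in WT mice, and 2 were lower and 1 higher in KO mice, and 1 of 5 pituitary markers was higher in KO mice. In that fit 8 of 8 oligodendrocyte precursor markers, 5 of 5 blood markers and 3 of 9 neuroblast markers were lower in KO mice. There 1 of 9 neuroblast and 2 of 9 neural progenitor markers were higher. Over all genes that fit called 8.11% lower and 8.89% higher in WT, and 10.7% and 10.6% in KO mice. The other marker counts were as with all mice. What these markers contributed to the fall of the cell cycle genes was not tested.

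None of the 42 genes was called between Katnal2-KO and WT mice. With all mice these fits called no gene at either age, Katnal2 itself included. The lack of a call therefore does not show that a gene was unchanged. The paper reported differentially expressed genes at both ages, found with DESeq2. At P21 0 of 42 passed by limma (0% of 17610 genes), and 2 had an unadjusted p under 0.05, against 2.44% of all genes. At P70 none of the 40 tested was called (0% of 17613 genes), 1 had an unadjusted p under 0.05, against 1.13%, and Aurkb and Ube2c were too low to be tested. The median log2 difference between KO and WT mice was 0.01 at P21 and 0.02 at P70, against 0.00 and 0.00 over all genes. Mki67 differed by 0.16 ± 0.13 at P21 and by -0.16 ± 0.21 at P70, and Top2a by 0.28 ± 0.19 and -0.44 ± 0.25, with overlapping groups throughout. Without the replicate 5 mice at P70 those P70 differences were -0.08 for Mki67 and -0.35 for Top2a. The difference between the age changes of KO and WT mice was called for none of the 42 (0% of 17637 genes), and 2 had an unadjusted p under 0.05, against 1.68%. No blood marker was called by genotype at P21. All 5 red cell genes were lower in KO mice at an unadjusted limma p under 0.05 (Hbb-bs -0.75 and Alas2 -0.85, adjusted p = 1.00). The summed levels of the blood markers overlapped between the genotypes, and their part in these values was not tested.

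**Figure D5:**
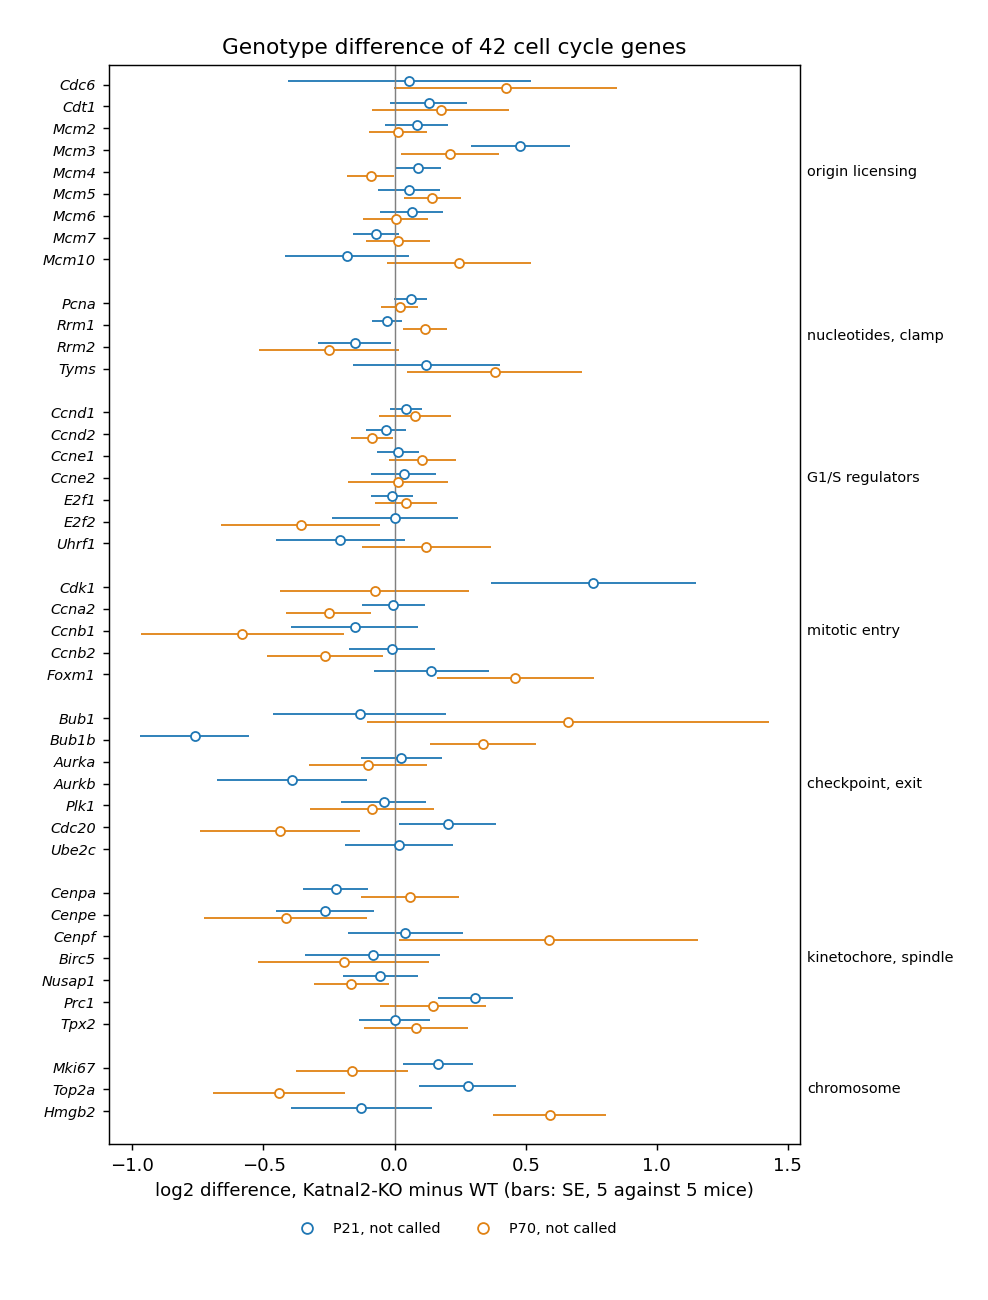
Log2 difference between Katnal2-KO and WT mice of each cell cycle gene (x axis, KO minus WT on the log2(value + 1) scale, bars are SE, 5 against 5 mice), blue at P21 and orange at P70, grouped by role, all points open because none was called. Aurkb and Ube2c have a P21 point alone. Bub1b at P21 (-0.76) and Hmgb2 at P70 (0.59) stand farthest from 0 relative to their SE.

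The smallest p at P21 belonged to Bub1b, the BubR1 kinase of the spindle checkpoint, which was 135, 125, 153, 82.1 and 152 in WT and 73.0, 97.8, 47.2, 73.1 and 91.1 in KO mice. It was lower in KO mice by 0.76 ± 0.21 on the log2 scale (unadjusted p = 0.00281, adjusted p = 1.00), with 1 WT mouse inside the KO range. At P70 it was 88.0, 96.2, 78.0, 108 and 101 in WT and 87.7, 88.1, 114, 182 and 146 in KO mice. The sign was then the opposite (0.34 ± 0.20), and the age changes differed 2.14-fold (SE 0.31 on the log2 scale, unadjusted p = 0.00175, adjusted p = 1.00). Neither difference passed the adjustment over all genes.

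Mcm3, another helicase subunit, was 50.8, 47.3, 66.8, 66.9 and 65.9 in WT and 75.3, 102, 117, 72.8 and 58.5 in KO mice at P21 (0.48 ± 0.19, unadjusted p = 0.0237, adjusted p = 1.00). At P70 it was 80.8, 67.8, 67.8, 57.1 and 60.6 in WT and 59.5, 82.8, 114, 61.0 and 78.7 in KO mice. It was higher than all WT mice in 4 of 5 KO mice at P21, and the P70 groups overlapped.

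Hmgb2 at P70 was 104, 54.7, 98.3, 84.7 and 108 in WT and 151, 88.3, 124, 161 and 152 in KO mice (0.59 ± 0.22, unadjusted p = 0.0180, adjusted p = 1.00). At P21 it was 88.3, 92.2, 249.6, 189.7 and 199.7 in WT and 109, 124, 175, 162 and 130.4 in KO mice. At P70 4 of 5 KO mice lay above all WT mice, and at P21 the KO range lay within the WT range. Without the replicate 5 mice the P70 difference was 0.62. For Top2a the age changes differed by -0.72 ± 0.32 (unadjusted p = 0.0360, adjusted p = 1.00), the larger fall being in KO mice, and without the replicate 5 mice at P70 by -0.63.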

How the data were processed

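The authors estimated transcript abundance from poly-A RNA libraries of whole brain with Salmon 1.1.0 on GRCm38 and normalized it with DESeq2 1.26.0 in R 3.6.2, per the labels' processing notes. The deposited values are these normalized counts, used here as a signal (coverage) unit for 19463 genes in 20 mice. Whole reads could not be recovered because the normalization carries factors of each gene, so no count test was run. Column sums lie between 27310523 and 28423042 and do not show depth, which was estimated from the most common low value of each mouse. IDs were matched to GENCODE M21 on GRCm38 for symbols and exon lengths (19447 of 19463).

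Groups came from the sample labels, and p-values measure the spread between mice. Limma 3.58.1 in R 4.3.3 (lmFit, eBayes with intensity trend) was fitted to log2(value + 1) over all genes with a mean of at least 10 in the mice of the fit, with Benjamini-Hochberg adjustment over all of them and a threshold of 0.05. Log2 differences are on this scale, which understates changes of low genes. Age was fitted within each genotype, genotype within each age, and their interaction over all mice. Errors after ± are SE for differences and SD for levels. Katnal2, Mki67 and Top2a were also compared by exact permutation tests. The test was checked on simulated data, drawn for each gene by itself. That check holds no effect shared by the genes of a mouse, so it does not cover mice that stand apart. The genes and lists were chosen with earlier results of these data known. Values in every mouse are given for Mki67 and Top2a, for the 2 genes of each role with the smallest p in the WT age comparison, for genes that rose, and for those with an unadjusted p under 0.05 in a genotype comparison or the interaction. Of every other list the 2 genes with the smallest WT p are named, and other called genes of a list were named after their values were seen. For the mature oligodendrocyte list 1 of these genes and the summed level are not reported here. Depdc1a, Cdkn2a, Lin54, Atoh1, S100a8, Camp and Pou1f1 were not analysed here.

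Alternatives were pseudocounts of 0.5 and 5, no filter and a mean of at least 50, quantile and total scaling, no trend, a joint fit of the 4 groups, each mouse left out, a replicate block, and, added after seeing the data, both P70 replicate 5 mice left out. Promoter windows are RefSeq sequences on GRCm38.p6.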

Additional observations from a re-analysis of the deposited data

Results flagged for a closer look

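Each of the 42 genes was examined in each of the 4 groups of 5 mice for a mouse far from the others, by the gap to its nearest neighbour over the range of the group (Dixon's 95% critical value of 0.71). Of 168 such sets 18 had one, and chance alone gives about 1 in 20. The gap is relative to the range of the group, so a small gap can be flagged where the other mice lie close together. Cdc6 was 57.7 in P21 WT replicate 5, far above the 7.50 to 19.0 of its group mates. Tyms was 93.5 in P21 KO replicate 3, far above the 44.5 to 45.6 of its group mates. Ccne1 was 375 in P70 WT replicate 5, far above the 289.8 to 307 of its group mates. Cdk1 was 45.8 in P21 WT replicate 4, far above the 9.64 to 14.1 of its group mates. Ccnb2 was 34.7 in P70 KO replicate 5, far above the 18.6 to 21.9 of its group mates. Foxm1 was 101 in P21 KO replicate 5, far above the 63.5 to 73.4 of its group mates. Bub1 was 50.3 in P70 KO replicate 4, far above the 3.63 to 9.53 of its group mates. Aurka was 41.9 in P21 KO replicate 3, a few units above the narrow 36.4 to 37.9 of its group mates. Aurkb was 25.9 in P21 WT replicate 4, far above the 13.9 to 17.4 of its group mates. Aurkb was 15.2 in P70 WT replicate 1, far above the 1.97 to 5.45 of its group mates. Birc5 was 31.0 in P70 WT replicate 4, far above the 16.4 to 20.3 of its group mates. Top2a was 69.0 in P70 KO replicate 3, far above the 26.4 to 30.6 of its group mates. Cdc6 was 3.24 in P70 WT replicate 5, far below the 11.2 to 12.9 of its group mates. Cdc6 was 5.10 in P70 KO replicate 1, far below the 15.4 to 17.8 of its group mates. Ccnd2 was 1250.0 in P21 KO replicate 4, far below the 1459 to 1507 of its group mates. E2f2 was 12.6 in P70 KO replicate 5, far below the 21.8 to 24.5 of its group mates. Uhrf1 was 20.9 in P70 WT replicate 4, far below the 27.5 to 30.0 of its group mates. Ube2c was 18.2 in P21 WT replicate 1, a few units below the narrow 22.2 to 23.8 of its group mates. P21 WT replicate 4 appeared for Cdk1 and Aurkb, P21 KO replicate 3 for Tyms and Aurka, and the P70 replicate 5 mice for Cdc6, Ccne1, E2f2 and Ccnb2.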

How the results depend on the processing

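No called gene or count turned its direction under the alternatives run. In WT mice the number of the 42 genes called lower (7) was 4 with a mean of at least 50, where Uhrf1, Aurkb and Ube2c were not tested. It was 5 with quantile normalization, where Uhrf1 and Ccna2 lost the call, and 3 to 8 when 1 mouse was left out. The number called higher (2) was 1 without the trend, 1 with the replicate block and 0 to 2 when 1 mouse was left out. In KO mice 6 lower became 3 with a mean of at least 50, where Rrm2, Ccnb1 and Ube2c were not tested, and 5 to 8 when 1 mouse was left out. There 1 higher became 3 in the fit of all 20 mice, 2 without both P70 replicate 5 mice and 1 to 2 when 1 mouse was left out. Over all genes, WT calls were 498 to 1431 lower and 414 to 1569 higher when 1 mouse was left out, with the lowest counts without P21 WT replicate 4 and the highest without P70 WT replicate 5, and 1431 and 1569 without both replicate 5 mice. KO calls were 486 to 1895 lower and 410 to 1864 higher when 1 mouse was left out (lowest without P21 KO replicate 4, highest without P70 KO replicate 5), 1895 and 1864 without both replicate 5 mice, and 514 and 399 with the replicate block. Genotype calls over all genes were 0 to 1 at P21 when 1 mouse was left out and 1 at P70 without both replicate 5 mice. With the replicate block the 42 genes gave 5 lower in WT and 5 lower in KO mice, a fit that is not a pairing by design. Across genotypes, deviations of same-numbered mice correlated at 0.705 for the P70 replicate 5 mice and between -0.009 and 0.26 for the others. Across genotypes the same number was the best match for P21 replicates 3, 4 and 5 and P70 replicates 2, 3, 4 and 5. It was not for the remaining numbers. Across ages they correlated between -0.119 and 0.16, with the own number best for WT replicates 2 and 4 and KO replicate 4 alone. Whether equal numbers share a litter or batch is not given, and the main genotype fits treated mice as unpaired. No gene was called by genotype with the replicate block at either age. The relation of Mki67 with Hbb-bs at P21 turned to 0.20 and that with Top2a at P70 to -0.48 without the 2 mice farthest from the median. The cause of these shifts was not tested. Of the other values 378 kept direction and side of the threshold and 59 lost the call. Depth limits the lowest genes, since the group mean was under 10 for Bub1 and Aurkb in P70 WT and for Ccnb1, Aurkb and Ube2c in P70 KO mice.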

Other observations

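Across the 10 mice of each age, the level of Mki67 was set beside that of 4 genes (8 relations, permutation test with 100000 resamples, adjusted by Benjamini-Hochberg over the 8). At P70 Mki67 was higher in mice with more Dcx, a gene of newborn neurons (Pearson r = 0.75, p = 0.0115, adjusted p = 0.0916, Spearman rho = 0.81, p = 0.00695, adjusted p = 0.0556), and with Pdgfra of oligodendrocyte precursors (r = 0.74, p = 0.0239, adjusted p = 0.0955, rho = 0.64, p = 0.0530, adjusted p = 0.141). The 2 mice farthest from the median of Mki67 at P70 were WT replicate 4 and KO replicate 5, the latter a mouse that stood apart. Without these 2, r was 0.53 for Dcx and 0.29 for Pdgfra (permutation adjusted p = 0.591 and 0.627, n = 8), of the same sign as with all 10 mice. At P21 r was 0.26 for Dcx, 0.59 for Pdgfra and 0.57 for Top2a (permutation adjusted p = 0.613, 0.139 and 0.139). Spearman rho was 0.33, 0.65 and 0.28 for these (permutation adjusted p = 0.556, 0.141 and 0.567). At P70 r with Top2a was 0.16 and rho 0.04 (permutation adjusted p = 0.683 and 0.918). With Hbb-bs of red cells r was -0.22 at P21 and -0.60 at P70 (permutation adjusted p = 0.613 and 0.139) and rho -0.07 and -0.55 (permutation adjusted p = 0.918 and 0.209). None of the 8 relations passed the adjustment, and the 10 mice hold both genotypes.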
